A study of Mus musculus with 12 samples.

Results

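The intercalated disc junction genes described here were 10 genes named by symbol, each found as 1 row in all 12 count files among 55401 gene rows. They code for the gap junction connexin Gja1, for the adherens junction proteins Cdh2, Ctnnb1, Ctnna3, Vcl and Xirp1, and for the desmosome proteins Dsp, Dsg2, Pkp2 and Jup. Adult mouse hearts of 2 genotypes, wild type (WT) and Rpl3l-/- (KO), were each measured as ribosome-bound RNA (IP) and as total RNA (Input). Each of the 4 groups held 3 biological replicates, and 7 of the 10 genes were abundant enough for the test across all genes. IP hearts, WT and KO alike, were bathed in cycloheximide when removed, and anti-HA beads pulled the ribosomes out of the homogenate. Input RNA came from heart homogenates of the same 2 genotypes by another purification (TRIzol, against RNeasy columns for IP), so fraction and purification cannot be told apart. The labels give no strain, age or sex, do not name the cells that carry the tag, and do not say whether an IP and an Input library share a heart.

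The intercalated disc is the end-to-end contact between heart muscle cells. Gap junctions built from connexins pass the electrical impulse across it, adherens junctions tie the actin of neighbouring sarcomeres together through cadherin and the catenins, and desmosomes anchor desmin filaments. In the heart these junctions mix, and inherited loss of desmosome proteins is a known cause of arrhythmogenic cardiomyopathy. Rpl3l codes for the form of the large-subunit ribosomal protein Rpl3 that striated muscle uses.

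Library totals ran from 169359 to 710868 counts, and every Input library held fewer counts than every IP library. A count of 3 in 1 library stood for 4.22 to 17.7 CPM (the usual scaling of counts to a common library total, here with the TMM method over the genes tested). Globin genes took 1.70% to 17.2% of the counts. Rpl3l had 270 ± 43.9 CPM (SD, n = 3) in WT Input and 48.9 ± 20.9 in KO Input, which edgeR called (log2 fold change -2.46, SE 0.27, adjusted p = 1.77e-05). In IP its log2 fold change was -5.84 (adjusted p = 9.27e-12), and Rpl3 was higher in KO in both fractions (0.95 and 1.35). Of 10 cardiomyocyte markers 9 had counts, with a summed level of 57607 to 67488 CPM over all libraries, and Actc1 was listed at 0 in every library. In such bulk samples, fewer cells of a type and less RNA per cell cannot be told apart.

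The junction genes spanned a wide range of abundance. Per kilobase of the longest annotated transcript, Ctnnb1 stood at 200.1 ± 64.9 CPM and Gja1 at 199 ± 13.3 CPM in WT Input (SD, n = 3), and their libraries overlapped. Dsp at 47.9 ± 2.31, Jup at 45.8 ± 2.86 and Cdh2 at 45.6 ± 7.17 CPM per kilobase formed a second level within which neighbours overlapped. Pkp2 followed at 30.7 ± 5.78 and Xirp1 at 16.8 ± 1.09 CPM per kilobase, each apart from the gene above it. Vcl, Dsg2 and Ctnna3 had means of 6.30, 2.49 and 2.24 CPM per kilobase, overlapped each other and did not pass the filter on low counts. In both IP groups Gja1 and Ctnnb1 again led and Dsp, Jup, Cdh2, Pkp2 and Xirp1 followed in the same order. WT IP was the only group in which the libraries of the leading pair did not overlap, with Gja1 at 154 ± 19.6 and Ctnnb1 at 129 ± 5.50 CPM per kilobase. Without the division by length, Dsp had the highest mean in both IP groups, at 538 CPM in WT and 606 CPM in KO. Gja1 then stood at 489 and 404 CPM, and Ctnnb1 at 467 and 476 CPM. Whether counts scale with transcript length in these libraries was not tested.

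**Figure D1:**
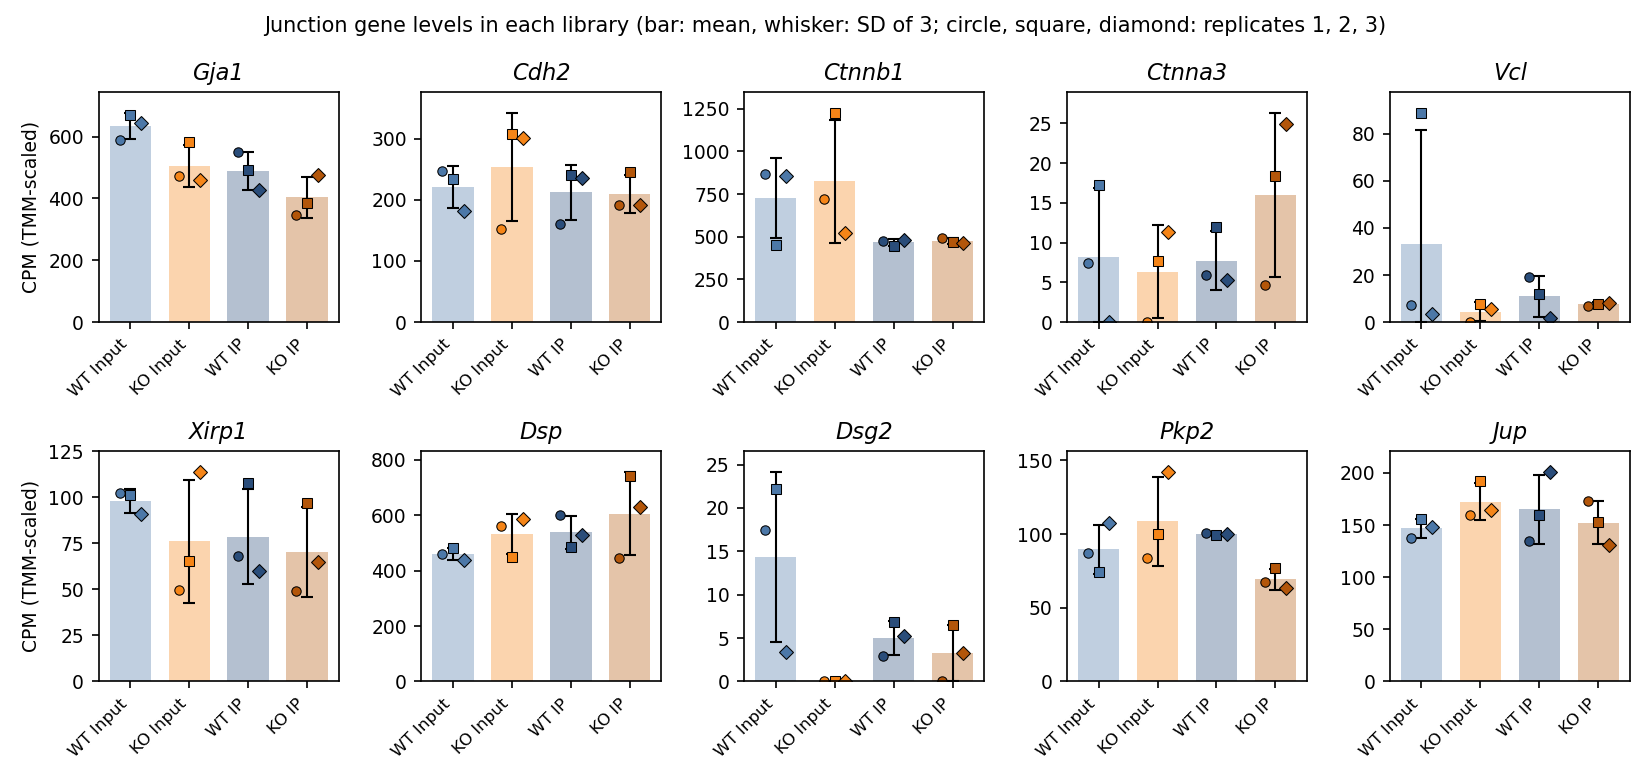
Level of each junction gene in CPM (linear axis, 1 scale per panel) in WT Input, KO Input, WT IP and KO IP; bars are means, whiskers SD of 3 libraries (cut off at 0), points single libraries. Ctnnb1 ranged from 454 to 1225 CPM over the 6 Input libraries and from 444 to 495 over the 6 IP libraries, and 1 WT Input library stood alone for Vcl at 88.8 CPM.

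No tested junction gene passed the threshold between genotypes. With edgeR's quasi-likelihood test and an adjusted p under 0.05, 0 of 7 tested junction genes differed between KO and WT in Input and 0 of 7 in IP. DESeq2 and limma-voom also called 0 in each fraction, and at an unadjusted edgeR p under 0.05 the counts were 0 of 7 in Input, beside 469 of all 6596 genes, and 1 of 7 (Pkp2) in IP, beside 343 of 6596. Few genes of any kind passed these contrasts, namely 12 of 6596 in Input (0.182%) and 6 in IP (0.091%). The median log2 fold change (KO over WT) of the 7 genes was 0.20 in Input, beside -0.01 over all genes tested, and -0.12 in IP, beside 0.00. The single values ran from -0.43 (Xirp1) to 0.26 (Pkp2) in Input and from -0.52 (Pkp2) to 0.18 (Dsp) in IP. Libraries of the 2 genotypes did not overlap for Gja1 and Jup among the 7 in Input, against 12.4% of all genes tested, and for Pkp2 in IP, against 10.8%.

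Between ribosome-bound and total RNA 1 junction gene passed the threshold. In KO hearts Ctnnb1 was lower in IP than in Input, the 1 call among 7, while 16.4% of all genes tested were called and 9.78% were called lower in IP (6.64% higher). In WT hearts 0 of 7 junction genes were called, against 14% of all genes, 8.67% lower and 5.37% higher in IP. With 7 genes, both counts lay near the share over all genes. DESeq2 and limma-voom gave the same counts, and 2 of 7 junction genes had an unadjusted edgeR p under 0.05 in each genotype, beside 1835 of 6596 genes in WT and 1936 in KO. The median log2 ratio of IP to Input over the 7 genes was -0.07 in WT and -0.26 in KO, beside 0.02 and 0.01 over all genes. Libraries of the fractions did not overlap for Gja1 and Dsp in WT, against 34.6% of all genes, and for Pkp2 and Ctnnb1 in KO, against 30.8%. The difference between the genotypes in this ratio (the interaction) was called by edgeR for 0 of 7 junction genes and for 6 of all genes (0.091%). DESeq2 and limma-voom called 0 of 7 there, and 1 (Pkp2) had an unadjusted edgeR p under 0.05, beside 463 of 6596 genes.

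**Figure D2:**
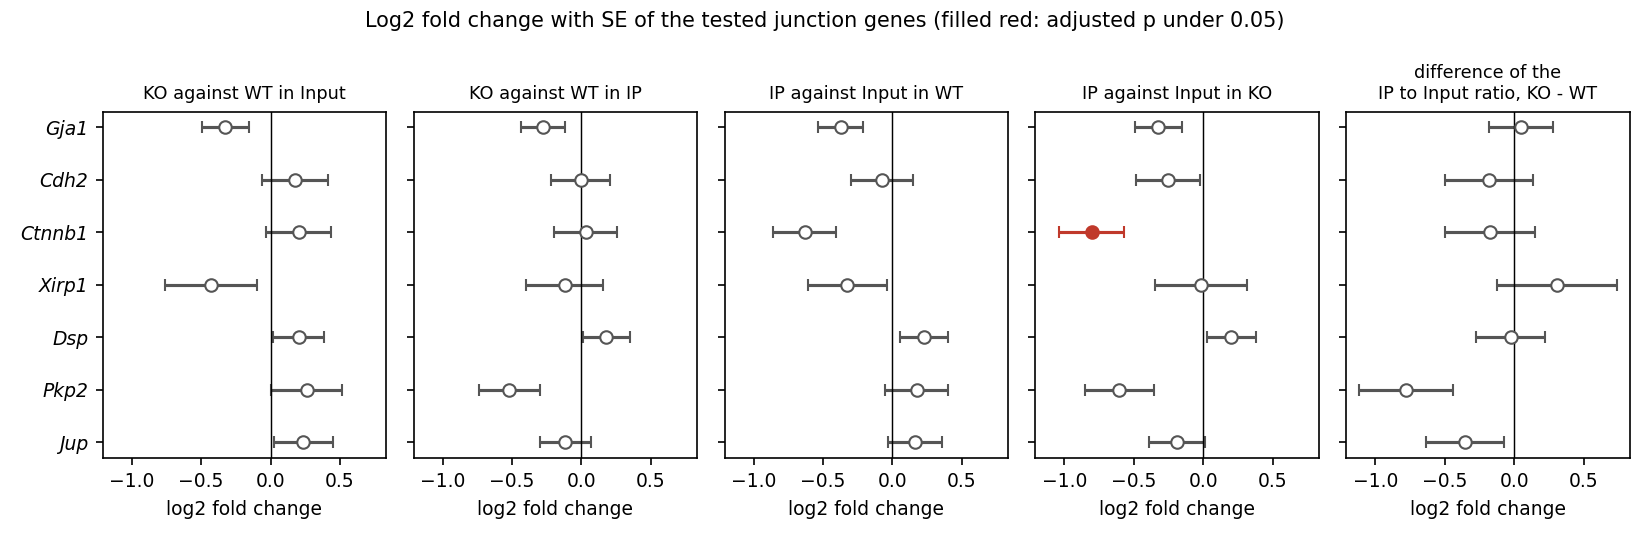
Log2 fold change (linear axis) with its SE for the 7 junction genes tested, in 1 panel per comparison; filled red marks an adjusted p under 0.05. The only filled point is Ctnnb1 in KO hearts, IP against Input, at -0.80.

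Gja1, the connexin of working ventricular muscle, lies on chromosome 10 from 56377330 to 56402513 (GRCm38, plus strand). Its 3 WT Input libraries held 588, 671 and 645 CPM and its KO Input libraries 472, 582 and 460.3 CPM. All KO Input libraries thus lay below all WT Input libraries. The log2 fold change was -0.33 (SE 0.17) and did not pass the threshold (adjusted p = 0.721), with an interval of 2 SE from -0.66 to 0.01. WT IP libraries held 551, 492 and 426 CPM and KO IP libraries 348, 386 and 477 CPM, and these groups overlapped (log2 fold change -0.28, SE 0.16, adjusted p = 0.965). The IP to Input ratio was -0.37 on the log2 scale in WT (SE 0.16, adjusted p = 0.124), where every IP library lay below every Input library, and -0.32 in KO (SE 0.17, adjusted p = 0.202). The WT value passed when genes were filtered more strictly (-0.43, adjusted p = 0.0470) and when only the WT libraries were fitted (-0.37, adjusted p = 0.0488). The genotype difference of this ratio was 0.05 (SE 0.23, adjusted p = 0.988).

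Gap junction partner genes showed no call. Of 9 listed genes (other connexins, the tight junction scaffold protein Tjp1, Cxadr and others), 8 had counts, 5 were tested, and 0 passed in any of the 5 comparisons. The smallest p between genotypes belonged in both fractions to Gjc1, a connexin of the conduction system, at -0.86 in Input (adjusted p = 0.806) and 0.58 in IP (adjusted p = 0.985). Between fractions in WT it belonged to Cxadr, a receptor at the disc (0.64, adjusted p = 0.176).

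Ctnnb1, or beta-catenin, links cadherin tails to alpha-catenin and is also the transcriptional effector of Wnt signals. The gene lies on chromosome 9 from 120929216 to 120960507 (plus strand), and 475 of its last 500 exonic bases are shared with other genes, Ulk4 on the opposite strand and Mir7090, which had 1 and 0 counts in the whole data set. Its Input libraries scattered widely, with 865, 454 and 856 CPM in WT and 724, 1225 and 523 CPM in KO. Its IP libraries were close together, with 475, 444 and 481 CPM in WT and 495, 471 and 464 CPM in KO. Every KO IP library lay below every KO Input library, whereas in WT the Input library of replicate 2 fell within the IP range. The SD was 235 CPM in WT Input and 362 CPM in KO Input, against 19.9 and 16.2 CPM in IP (n = 3 each).

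The log2 IP to Input ratio of Ctnnb1 was -0.80 in KO (SE 0.23, adjusted p = 0.0178), a level 1.75-fold lower in IP. In WT it was -0.63 (SE 0.23, adjusted p = 0.0656), and the difference between genotypes was -0.17 (SE 0.32, adjusted p = 0.947). The KO call rested on single libraries. Without KO Input replicate 2, the library at 1225 CPM, the ratio was -0.40 (adjusted p = 0.287), without KO IP replicate 2 it was -0.78 (0.0616), and without KO IP replicate 3 it was -0.77 (0.0679). With all libraries thinned to the smallest total, in a single random draw, it was -0.65 (adjusted p = 0.176). In WT the ratio passed without Input replicate 2, the library at 454 CPM (-0.89, adjusted p = 0.0129). It also passed with no filter (-0.56, 0.0274), with the stricter filter (-0.69, 0.0399) and with only the WT libraries fitted (-0.63, 0.0128). Between genotypes Ctnnb1 differed by 0.20 in Input (SE 0.23, adjusted p = 0.899) and by 0.03 in IP (SE 0.23, adjusted p = 0.999).

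**Figure D3:**
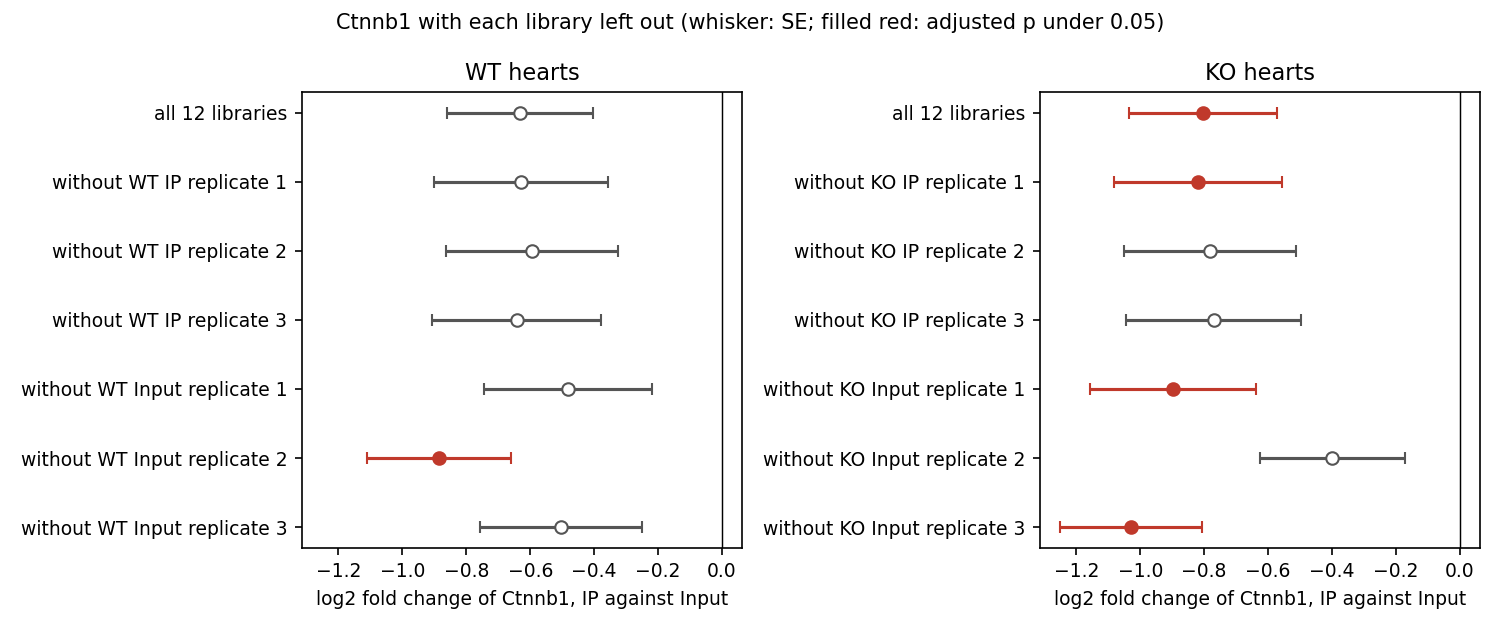
Log2 IP to Input ratio of Ctnnb1 (linear axis, whiskers SE) with all 12 libraries and with each compared library left out, for WT (left) and KO (right); filled red marks an adjusted p under 0.05. In KO the ratio moved from -0.80 to -0.40 without Input replicate 2, and in WT from -0.63 to -0.89 without Input replicate 2.

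Beta-catenin is also used by cell types other than muscle, and the summed level of endothelial markers was lower in IP than in Input. All 10 were tested, and their summed level was 927 to 952 CPM in WT Input, 711 to 747 in WT IP, 952 to 1188 in KO Input and 713 to 889 in KO IP. Of the 10, 4 had a positive ratio in each genotype (median -0.15 in WT and -0.38 in KO). In WT 2 were called lower and 2 higher in IP, and in KO 3 lower and 1 higher, beside 14% and 16.4% of all genes called. Egfl7 at -1.97 and -1.79 and Esam at -1.40 and -1.37 were lower in IP in both genotypes. Vwf at 0.98 in WT (adjusted p = 0.0393) and 1.14 in KO (0.0155) and Tek at 1.21 in WT (0.0377) were called higher in IP. The WT calls of Vwf and Tek were lost with DESeq2 (adjusted p = 0.0741 and 0.0733), the KO call of Vwf after removal of the length trend (to 0.76, adjusted p = 0.131), and both calls of Esam with thinned libraries (-1.34 in WT, -0.67 in KO). Other marker lists varied. Of 9 cardiomyocyte markers tested, 4 had a positive ratio in WT (median -0.02) and 5 in KO (median 0.09). Of 9 fibroblast markers tested, 7 had a positive ratio in WT (median 0.45) and 8 in KO (median 0.32). Of 7 macrophage markers, 6 were positive in WT and 4 in KO. Of 6 smooth muscle and pericyte markers, 2 were positive in each genotype (medians -0.17 and -0.45). Of 2 epicardial markers, 0 were positive in WT and 1 in KO. The part of endothelial or other non-muscle RNA in the Ctnnb1 ratio was not tested. Long transcripts had higher ratios than short ones, and the fitted trend at the Ctnnb1 length of 3623 nucleotides was 0.04 in WT and 0.06 in KO. With the trend removed, the KO ratio of Ctnnb1 was -0.86 (adjusted p = 0.0148).

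Cdh2, or N-cadherin, spans the cleft between the cells, and its gene lies on chromosome 18 from 16588877 to 16809246 (minus strand). It had 247, 234 and 181 CPM in WT Input, 152, 308 and 301 in KO Input, 159.9, 239.8 and 236 in WT IP and 191, 245 and 191 in KO IP. All 4 groups overlapped. The log2 fold change between genotypes was 0.18 in Input (SE 0.24, adjusted p = 0.913) and -0.01 in IP (SE 0.21, adjusted p = 1.00). The IP to Input ratio was -0.07 in WT (adjusted p = 0.869) and -0.26 in KO (adjusted p = 0.498). The interval of 2 SE for the IP genotype difference ran from -0.44 to 0.42 on the log2 scale.

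Xirp1, an actin-binding repeat protein of the disc also called Xin, lies on chromosome 9 from 120013755 to 120023598 (minus strand). Its libraries held 102, 101 and 90.7 CPM in WT Input, 49.5, 65.5 and 114 in KO Input, 68.1, 108 and 59.9 in WT IP and 49.0, 96.8 and 64.8 in KO IP. WT Input was the tightest group, and the KO Input libraries fell on both sides of it. The genotype difference was -0.43 in Input (SE 0.33, adjusted p = 0.833) and -0.12 in IP (SE 0.28, adjusted p = 0.990). The IP to Input ratio was -0.32 in WT and -0.02 in KO, with adjusted p of 0.489 and 0.980.

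Vcl, or vinculin, couples cadherin complexes and integrins to actin. Its gene (chromosome 14, from 20929398 to 21033676, plus strand) had 78 counts in the whole data set, 36 of them in WT Input replicate 2. That library stood at 88.8 CPM, beside 7.48 and 3.36 CPM in the other WT Input libraries, 0, 7.70 and 5.68 in KO Input, 19.2, 12.0 and 1.76 in WT IP and 7.0, 7.85 and 8.31 in KO IP. With no filter on low counts edgeR gave a KO over WT log2 fold change of -2.97 in Input (adjusted p = 0.0304). Without WT Input replicate 2 it was -0.43 (adjusted p = 1.00). Without KO Input replicates 1, 2 or 3 it was -2.36, -3.82 and -3.13, with adjusted p of 0.325, 0.0517 and 0.0942.

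The Vcl gene shares 2090 of its 8191 exonic bases with Ap3m1, a vesicle adaptor gene on the opposite strand, among them all of the last 500 exonic bases of Vcl. The sources used here do not give whether counting used strand, so reads from the shared end cannot be assigned with certainty. In WT Input replicate 2 Vcl had 36 counts and Ap3m1 had 8, so that Vcl took 81.8% of the pair. In the other 11 libraries Vcl took 0% to 16.2% of the pair. The summed level of both genes was 109 CPM in that library and between 84.0 and 153 CPM in the other 11. By group the sum was 104 ± 10.1 CPM in WT Input, 129 ± 21.3 in KO Input, 107 ± 15.5 in WT IP and 96.9 ± 17.2 in KO IP (SD, n = 3).

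**Figure D4:**
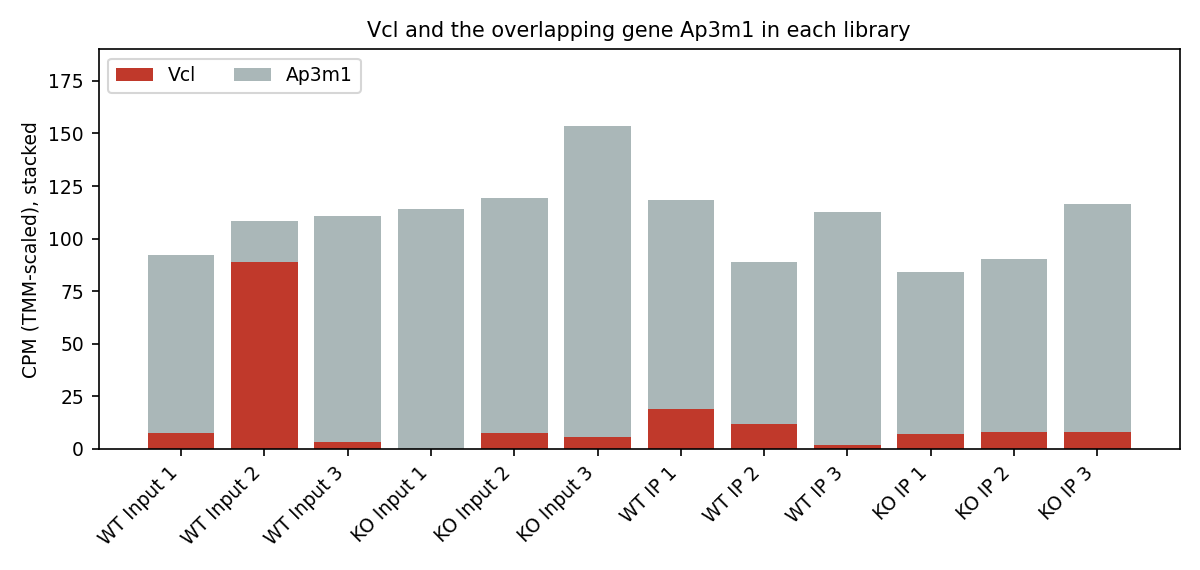
Stacked levels in CPM (linear axis from 0) of Vcl (red) and of the overlapping opposite-strand gene Ap3m1 (grey) in each of the 12 libraries. WT Input replicate 2 is the only library in which Vcl holds most of the stack, while its height of 109 CPM lies within the range of the other 11.

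Ctnna3, the alpha-catenin largely restricted to heart and testis, binds plakophilin as well as actin, and its gene runs on chromosome 10 from 63430098 to 65003667 (plus strand). It had 59 counts in all. WT Input libraries held 3, 7 and 0 counts, KO Input libraries 0, 2 and 2, WT IP libraries 4, 7 and 3, and KO IP libraries 2, 14 and 15. KO IP held the highest libraries, and its replicate 1 lay below all WT IP libraries. The pooled KO IP level was 2.25 times that of WT IP, with an exact 95% interval from 1.16 to 4.59 that covers counting error only. By the edgeR fit with no filter the genotypes differed by 1.08 on the log2 scale (SE 0.64, adjusted p = 0.985).

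Of 19 listed partners of the adherens junction 17 were tested, and 4 passed between fractions in WT and 6 in KO. In WT 2 rose and 2 fell in IP, and in KO 3 rose and 3 fell, while none passed between genotypes. Over all genes tested, 14% passed between fractions in WT and 16.4% in KO. Ctnna1, the widely expressed alpha-catenin, had 291 ± 6.24 CPM in WT Input and 465 ± 61.1 in WT IP (SD, n = 3), a log2 ratio of 0.67 (adjusted p = 0.00666), and in KO its ratio was 0.75 (adjusted p = 0.00309). Both calls held with each compared library left out, and the WT call was lost with libraries thinned to the smallest total (0.62, adjusted p = 0.145). Nrap, an actin-anchoring protein of the disc, was higher in IP by 0.66 in WT (adjusted p = 0.00830) and 0.76 in KO (0.00360). Its WT call was lost without WT IP replicate 3 (0.55), WT Input replicate 1 (0.62) or WT Input replicate 3 (0.54), and both calls were lost with the length trend removed (0.49 in WT, 0.51 in KO).

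Sorbs2, an adaptor between actin and junction proteins, fell in IP in KO by 1.03 on the log2 scale (adjusted p = 0.00190) and in WT by 0.69 (0.0288). The WT call was lost without WT IP replicates 2 (-0.60) or 3 (-0.66) and without WT Input replicates 1 (-0.75) or 2 (-0.54). With thinned libraries both calls were lost (-0.19 in WT, -1.17 in KO). Xirp2, the paralog of Xirp1, had 236 ± 60.2 CPM in KO Input and 113 ± 39.9 in KO IP, a ratio of -1.0 (adjusted p = 0.00410) that held with each compared library left out and was lost with thinned libraries (-0.76, adjusted p = 0.273). Between genotypes in IP, Xirp2 had the smallest p of the list (log2 fold change -0.72, SE 0.22, adjusted p = 0.571). Vasp, which promotes actin filament growth, was lower in IP in both genotypes (-1.19 in WT, adjusted p = 0.0294, and -1.10 in KO, adjusted p = 0.0454). Its WT call was lost without any 1 of WT IP replicates 1, 2 and 3 or WT Input replicates 1 and 3 (-1.31 to -1.05). The WT call of Vasp was also lost with the DESeq2 test (adjusted p = 0.0733). By edgeR it was lost with library totals (0.0516), no filter (0.0793) and the length trend removed (0.0526). Alternatives for its KO call are not reported here.

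Dsp, or desmoplakin, joins the desmosome plaque to desmin filaments (chromosome 13, from 38151294 to 38198577, plus strand). Its libraries held 461, 481 and 437 CPM in WT Input, 559.8, 451 and 585 in KO Input, 601, 485 and 528 in WT IP and 446, 743 and 628 in KO IP. Each WT IP library lay above each WT Input library, and the other pairs of groups overlapped. The log2 fold change between genotypes was 0.20 in Input (SE 0.18, adjusted p = 0.856) and 0.18 in IP (SE 0.17, adjusted p = 0.985). The IP to Input ratio was 0.23 in WT (SE 0.17, adjusted p = 0.423) and 0.20 in KO (SE 0.18, adjusted p = 0.486). Dsp has the longest transcript of the 10, 9592 nucleotides, and the fitted length trend there was 0.21 in WT and 0.41 in KO. With the trend removed the ratios were 0.02 in WT and -0.21 in KO, with adjusted p of 0.960 and 0.498.

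Pkp2, or plakophilin 2, stabilises the desmosome plaque and lies on chromosome 16 from 16213318 to 16272712 (plus strand). It had 101, 99.4 and 100.4 CPM in WT IP and 67.7, 77.2 and 63.2 CPM in KO IP. All KO IP libraries lay below all WT IP libraries and also below all KO Input libraries, which held 83.8, 100.1 and 142 CPM. WT Input libraries held 87.2, 74.0 and 107 CPM. The KO over WT log2 fold change in IP was -0.52 (SE 0.22), with an edgeR p of 0.0260 that did not survive adjustment (0.920), and in Input it was 0.26 (SE 0.25, adjusted p = 0.879). The IP to Input ratio was 0.18 in WT (SE 0.23, adjusted p = 0.659) and -0.60 in KO (SE 0.25, adjusted p = 0.101). The difference of these ratios, -0.78 (SE 0.34), was the largest in size among the 7 genes and did not pass either (edgeR adjusted p = 0.668). It kept its sign in all 23 alternative fits and passed in none.

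Jup, or plakoglobin, is the catenin that serves desmosomes and adherens junctions alike (chromosome 11, from 100368958 to 100397763, minus strand). It had 137, 155 and 148 CPM in WT Input and 159.9, 193 and 165 CPM in KO Input, so that the groups did not overlap. The log2 fold change was 0.24 (SE 0.21, adjusted p = 0.856). In IP the libraries held 135, 159 and 201 CPM in WT and 173, 153 and 131 in KO, and the groups overlapped (log2 fold change -0.12, SE 0.18, adjusted p = 0.988). The IP to Input ratio was 0.16 in WT and -0.19 in KO, with adjusted p of 0.621 and 0.576.

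Dsg2, or desmoglein 2, is the desmosomal cadherin of heart muscle, with its gene on chromosome 18 from 20558074 to 20604521 (plus strand). It had 33 counts in all. WT Input libraries held 7, 9 and 1 counts, KO Input libraries 0, 0 and 0, WT IP libraries 2, 4 and 3 and KO IP libraries 0, 5 and 2. The KO Input libraries were thus the only group without a read, and they were also the shallowest. The pooled WT Input level was 15.4 CPM (exact 95% interval 8.97 to 24.6), and the ratio of the pooled KO to the pooled WT Input level was 0 with an exact upper limit of 0.383, both covering counting error only. Without WT Input replicate 2 the upper limit was 0.586. The edgeR fit with no filter did not pass (adjusted p = 0.148), and with each compared library left out its adjusted p ran from 0.0700 to 0.537. In IP the pooled levels were 4.93 CPM in WT and 3.90 in KO.

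Desmosome and intermediate filament partners gave 2 calls in 1 comparison. Of 11 listed genes 6 were tested, and in KO hearts Plec, a linker of desmin to membranes and sarcomeres, and Perp, a desmosome membrane protein, were higher in IP than in Input. Plec had a log2 ratio of 0.81 (adjusted p = 0.0264), lost without KO IP replicate 3 (0.77) or KO Input replicates 2 (0.67) or 3 (0.75), and 0.31 (adjusted p = 0.464) with the length trend removed. Perp had 0.66 (adjusted p = 0.0455) and lost its call without any 1 of the 6 compared libraries (0.58 to 0.72). In WT and between genotypes none of the 6 passed. The share of all genes called between fractions was 16.4% in KO and 14% in WT.

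Of the ion channel and scaffold genes of the disc, 12 were tested. The smallest p of the list between fractions in KO hearts was that of Ank3, an ankyrin that anchors membrane proteins to the cytoskeleton, with a log2 ratio of 0.84 that did not pass the threshold (adjusted p = 0.0751).

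Integrin and dystrophin genes of the costamere, the lateral counterpart of the disc, were tested in 15 of 16 cases. In WT 0 rose and 1 fell in IP, and in KO 3 rose and 5 fell, beside 14% and 16.4% of all genes called. Dmd, dystrophin, fell in both genotypes. Its mean was 109 CPM in WT Input and 33.0 in WT IP (log2 ratio -1.72, adjusted p = 1.06e-04), and 79.4 CPM in KO Input and 31.5 in KO IP (-1.31, adjusted p = 0.00438). Both calls held with each compared library left out. With libraries thinned to the smallest total both were lost, at -0.90 in WT (adjusted p = 0.472) and -2.16 in KO (adjusted p = 0.0829).

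Genes of the beta-catenin pathway, which shares Ctnnb1 with the junction, were tested in 9 of 17 cases. Of these 2 rose in IP in WT and 2 in KO, and 0 fell in either, beside 14% and 16.4% of all genes called. Lrp5, a Wnt coreceptor, had ratios of 1.24 in WT (adjusted p = 0.0255) and 1.88 in KO (adjusted p = 0.00478). Its WT call was lost without any 1 of the 6 compared libraries (1.07 to 1.39), and its KO call held without each and was lost with limma-voom (1.87, adjusted p = 0.0863). Csnk1a1, a kinase that primes beta-catenin for breakdown, had a WT ratio of 0.59 (adjusted p = 0.0364), lost without WT IP replicates 2 or 3 or any of the 3 WT Input libraries (0.48 to 0.61). Gsk3b, the kinase that follows it, had 40.0 CPM in KO Input and 95.4 in KO IP, a ratio of 1.30 (adjusted p = 0.00551), which held without each library. It was 0.94 (adjusted p = 0.0576) with the length trend removed and 1.58 (adjusted p = 0.204) with thinned libraries. Ctnnb1 itself lay on the other side of 0, as given above.

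Over the 6 partner lists together, 64 of 84 genes were tested. Between genotypes edgeR, DESeq2 and limma-voom each called 0 in Input and 0 in IP. There 3 genes in Input and 4 in IP had an unadjusted edgeR p under 0.05, beside 469 and 343 of all 6596 genes. Between fractions 5 rose and 3 fell in IP in WT, where 14% of all genes tested were called. In KO 10 rose and 8 fell, where 16.4% of all genes tested were called. Called in both genotypes were 6 genes, namely Ctnna1, Nrap, Lrp5, Sorbs2, Vasp and Dmd, each with the same sign in both, 14 were called in 1 genotype and 44 in neither. None of the 64 passed in the interaction by any of the 3 tools. There 4 had an unadjusted edgeR p under 0.05, beside 463 of all 6596 genes. A partner called in 1 genotype was therefore not shown to differ between the genotypes.

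**Figure D5:**
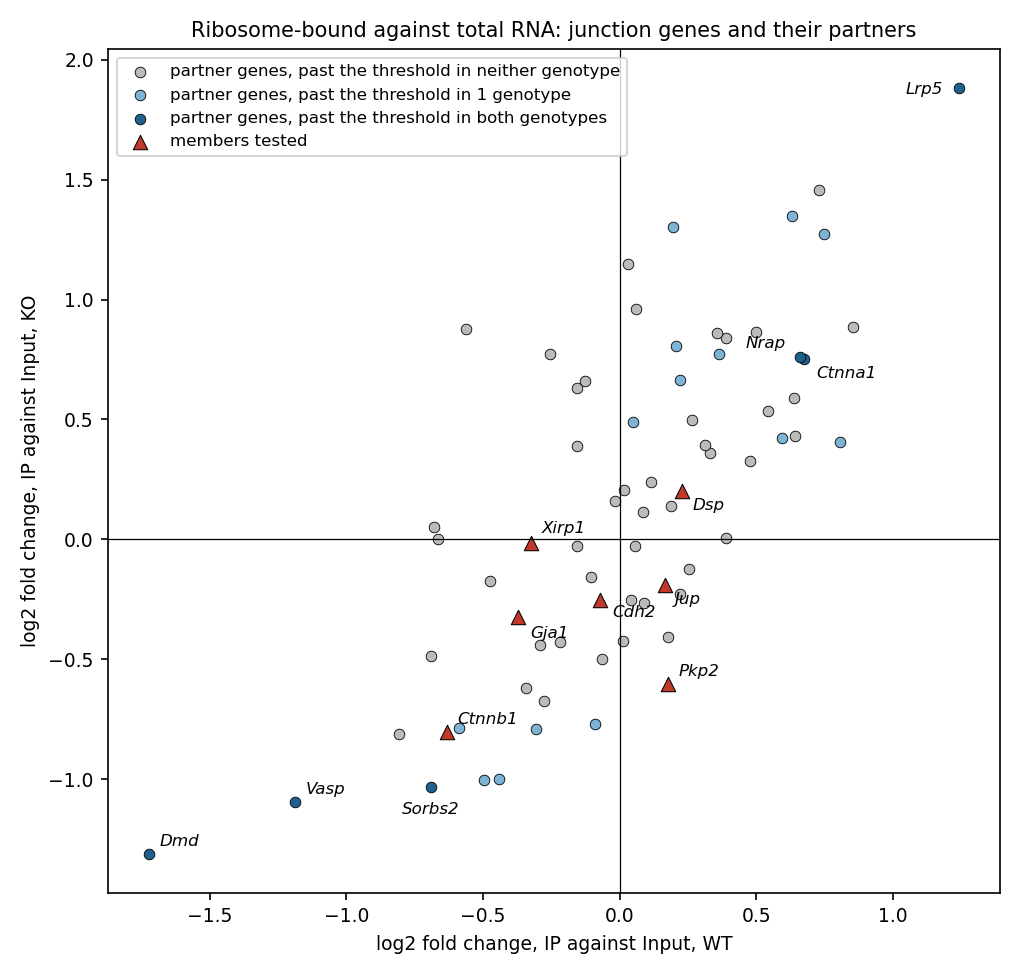
Log2 IP to Input ratio in WT (x axis) and KO (y axis) for 64 partner genes (circles, shaded by the number of genotypes in which they passed the threshold) and the 7 junction genes tested (triangles). The 6 partners that passed in both genotypes lie in the lower left and upper right quadrants, while Pkp2 and Jup lie right of 0 in WT and below 0 in KO.

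Likeness of profiles over the 12 libraries was described for the 7 tested junction genes as the root mean square difference of log2 CPM after centring each gene on its mean, with no test, and all genes share the depth of the same libraries. The closest pair was Cdh2 and Jup at 0.28, and Jup was also the nearest member to Dsp (0.33) and Pkp2 (0.30). This measure also depends on how much each gene varies. Against a flat profile, Jup had the smallest difference of the 7 (0.18) and Ctnnb1 the largest (0.46). Dsp lay nearer to a flat profile (0.23) than to Jup, so the nearest member need not share a pattern. Ctnnb1 was the farthest member from Cdh2, Dsp, Pkp2 and Xirp1 (0.48 to 0.64), and its own nearest member was Gja1 at 0.42. Among all genes tested, the most alike was Eci1 for Gja1 (0.14), Sap18 for Cdh2 (0.17), Rgs5 for Dsp (0.13), Myom1 for Pkp2 (0.13), Ubald1 for Jup (0.13), Cdc26 for Ctnnb1 (0.23) and Usp15 for Xirp1 (0.21). The nearest junction gene ranked from 68 (Jup for Cdh2) to 925 (Pkp2 for Gja1) among all genes tested, whose median difference was 0.48 to 0.63.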

How the data were processed

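The deposited files hold whole-number read counts per gene and library, made by the authors. The submitters' processing notes name minimap2 2.14, DESeq2 1.34.0 and the build GRCm38, and the counting tool, its rule and the annotation are not given in the sources used here. Of 55401 gene IDs, 55141 matched GENCODE M21 without their version, which gave names, positions and lengths, and 38803 were 0 in all libraries. The 6596 genes passing filterByExpr (minimum count 10, total 15) entered a model in edgeR 4.0.16, R 4.3.3 (TMM, quasi-likelihood, 1 mean per group over 12 libraries), with Benjamini-Hochberg adjustment within each of 5 contrasts and a threshold of 0.05. SEs were derived from the log2 fold change and its F statistic, and CPM used TMM-scaled library sizes. A rank test of 3 against 3 libraries cannot go below an exact p of 0.10. Intervals of pooled counts are exact and cover counting error only. The test was tried on simulated counts drawn with the fitted spread and no added outlying libraries, and no result here rests on that trial.

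Members and gene lists were chosen with earlier results of these data known. All members are named, Rpl3l and Rpl3 check the labels, and each other list could give up to 4 called genes per contrast, ranked by p, or its top gene where none was called. Tjp1, Actc1 and Ap3m1 were named outside that rule, after their values were seen. Results of some listed genes are not reported here, although counts over the lists include them. Alternatives were DESeq2 (1.42.0) size factors and test, library totals, no filter, a stricter filter (30 counts in 3 libraries), limma-voom (limma 3.58.1), only the compared libraries, the replicate block, thinned libraries, globin genes left out, the length trend removed (loess span 0.5), and libraries left out. Thinning was a single random draw, so every value from thinned libraries also carries the scatter of that draw. Added after seeing the data were the unfiltered fits with each library left out and all alternatives for partner genes. Replicate numbers were checked for pairing: deviations of same-numbered libraries correlated at -0.115 to 0.04 and in 0 of 18 comparisons was the same number the most similar, so libraries were treated as unpaired.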

Additional observations from a re-analysis of the deposited data

Results flagged for a closer look

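Rpl3l, the deleted gene, differed between the fractions in its response to genotype. The KO minus WT difference of its log2 IP to Input ratio was -3.38 (SE 0.52, edgeR adjusted p = 0.00538), since its level in KO was 48.9 CPM in Input and 4.42 CPM in IP, against 270 and 272 CPM in WT. The call was lost with limma-voom (-3.36, adjusted p = 0.376), with thinned libraries (-2.70, 0.690) and without KO Input replicate 1 (-2.99, 0.0503). No junction gene met the rules for a closer look, and groups of 3 libraries are too small for the test of single outlying libraries.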

How the results depend on the processing

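Between genotypes in IP and in the interaction, the number of junction genes called stayed at 0 under every alternative. In Input it was 1 with no filter (Vcl) and 0 under the others. For IP against Input in WT it was 1 with no filter, 2 with the stricter filter, 2 with only the compared libraries, and 0 to 1 with single libraries left out. In KO it was 0 with thinned libraries and 0 to 1 with single libraries left out. No called value of a junction gene or partner changed sign.

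Counts of all genes called depended more on the processing: thinned libraries gave 2, 2, 202, 255 and 0 in the 5 comparisons, no filter gave 77, 55, 1068, 1084 and 37. The cause was not tested, although thinning leaves fewer counts and was drawn at random a single time. DESeq2 called 9 partners in KO IP against Input, where edgeR called 18. With library totals in place of TMM, the all-gene median was 0.12 for KO against WT in IP and 0.15 for IP against Input in KO, where the split of calls went from 438 higher and 645 lower to 599 and 448. With the replicate block, junction genes called were 0, 0, 0, 1 and 0, as without it, and all genes called were 15, 8, 858, 1009 and 4.

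Low counts limit Dsg2, Ctnna3 and Vcl, with at most 9, 15 and 36 counts in a library and many values near 3. For Vcl, low depth and the end shared with Ap3m1 cannot be told apart, and neither was tested.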

Other observations

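The uneven split between Vcl and Ap3m1 in 1 library was set beside other gene pairs, chosen after these values were seen. Among 484 pairs of overlapping genes on opposite strands with at least 60 counts each, 30 pairs (6.20%) had at least 1 library whose log2 ratio of the genes (0.5 added to each count) lay more than 4 from the pair's own median, and 20 of these had 1 such library only. For Vcl and Ap3m1 the departure in WT Input replicate 2 was 5.53. No cause was tested.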
